A study of Homo sapiens with 12 samples.

Results

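CD55, CD46 and CD59, which shield the cell's own membrane from complement, and C1R, C1S, C3 and SERPING1, which encode secreted complement proteins and a secreted inhibitor, were followed across 4 treatments of 143B osteosarcoma cells. These 7 genes were taken by symbol from the 56140 gene symbols quantified. CD55 was chosen by its FPKM, which were higher with each drug than in DMSO, so its values are a description and carry no test. Of the 7 genes, 3 (CD55, CD46 and CD59) passed the expression filter, which asks for 3 or more libraries that reach 1 FPKM. FPKM is fragments per kilobase of transcript scaled to the number of mapped fragments, so it allows levels to be compared between genes.

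143B is an established human osteosarcoma line, and its genotype is labelled wild-type. Dishes of cells received 1.0 µM ceritinib together with 1.0 µM crenolanib (the combination), ceritinib alone at the same dose, crenolanib alone at the same dose, or the solvent DMSO. RNA was collected after 48 h from 3 biological replicates per group, which gave 12 RNA-seq libraries. Ceritinib is an inhibitor of the ALK and IGF-1 receptor tyrosine kinases and crenolanib an inhibitor of PDGF receptors and FLT3, and the comparisons ask what each drug and the pair did to transcript levels in 1 cell line at 1 dose and 1 time.

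Complement is a cascade of plasma proteins that marks and lyses cells. In the classical pathway the proteases C1r and C1s cleave C4 and C2, the convertases that form then cleave C3, and deposited C3b leads on to the membrane attack complex. Nucleated cells limit this on their own surface with CD55, which speeds the decay of the C3 and C5 convertases, CD46, a cofactor for the cleavage of C3b and C4b by factor I, and CD59, which blocks assembly of the attack complex, while the secreted C1 inhibitor SERPING1 inactivates C1r and C1s. CD55 and CD59 are held in the membrane by a glycosylphosphatidylinositol (GPI) anchor and CD46 by a transmembrane segment.

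The depth estimated from the smallest FPKM steps was 19.6 to 22.1 M fragments in the combination libraries and 22.7 to 28.2 M in the other 9. Cell markers read as follows. Of 10 mesenchymal and osteoblast lineage markers, VIM, CD44 and SPARC were abundant, with 401 to 492, 46.9 to 58.5 and 47.7 to 82.5 FPKM over the 12 libraries. THY1, ALPL, SP7, BGLAP and COL1A2 of the same list were between 0 and 0.162 FPKM in every library. COL1A1 ranged between 0.260 and 0.932 FPKM and RUNX2, the osteoblast transcription factor, between 0.526 and 1.31 FPKM, and RUNX2 passed the filter. The text on RNA extraction calls the material thymic and every other label names 143B cells. The 6 thymic markers CD3D, CD4, CD8A, PTCRA, RAG1 and DNTT had summed levels of 0.230 to 0.477 FPKM in the combination, 0.558 to 0.769 FPKM under ceritinib, 0.217 to 0.366 FPKM under crenolanib and 0.207 to 1.11 FPKM in DMSO. The 5 hepatocyte markers, from a main source of plasma complement, summed to at most 0.147 FPKM in any library. The summed level of the 4 epithelial markers, nearly all from KRT18, was higher in the combination. It was 467 to 475 FPKM there, 284 to 292 FPKM under ceritinib, 275 to 293 FPKM under crenolanib and 296 to 320.4 FPKM in DMSO. CDH1 reached at most 0.00502 FPKM and KRT19 at most 0.269 FPKM. EPCAM, another epithelial marker, passed the filter with 0.781 to 2.13 FPKM over the 12 libraries. It was not higher in the combination, with means of 0.907 FPKM there, 1.94 with ceritinib, 0.974 with crenolanib and 1.29 in DMSO. The 5 blood markers, nearly all from CD68, summed to 30.2 to 37.0 FPKM in the combination, 19.7 to 28.6 FPKM under ceritinib, 20.4 to 21.6 FPKM under crenolanib and 25.9 to 30.2 FPKM in DMSO, with PTPRC at most 0.00397 FPKM. Mitochondrially encoded genes took 20.2 ± 1.32% of the summed FPKM in the combination, 29.3 ± 0.517% with ceritinib, 25.9 ± 0.387% with crenolanib and 24.1 ± 1.19% in DMSO (SD, n = 3 each), and the part of these differences in the results was not tested.

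CD55 was higher in every treated group than in DMSO, and by most in the combination. It stood at 28.8, 30.2 and 28.9 FPKM in the 3 combination libraries, 15.3, 16.1 and 15.9 FPKM with ceritinib, 9.30, 9.21 and 9.03 FPKM with crenolanib, and 6.89, 6.23 and 6.94 FPKM in DMSO. No library of any group fell within the range of another group, but CD55 was chosen by these same values. The share of all genes with separate groups was not counted, here or for the genes and ratios below. In bulk libraries such as these, more or fewer cells with a transcript and more or less of it per cell cannot be told apart. The means were 29.3 ± 0.784 FPKM in the combination, 15.8 ± 0.407 with ceritinib, 9.18 ± 0.136 with crenolanib and 6.69 ± 0.393 in DMSO (SD, n = 3 each). In ratios of means to DMSO these are 4.38 for the combination, 2.36 for ceritinib and 1.37 for crenolanib. The product of the single-drug ratios is 3.24. CD55 exceeded 88.4% of the 10566 protein-coding genes tested in the combination, 79.8% with ceritinib, 65.6% with crenolanib and 55.6% in DMSO, in order of mean FPKM.

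On the scale used for tests, log2(FPKM + 1), CD55 was higher than DMSO by 1.98 ± 0.04 (SE) in the combination, 1.13 with ceritinib and 0.41 with crenolanib. The combination also stood 0.85 above ceritinib and 1.57 above crenolanib, and ceritinib stood 0.72 above crenolanib. The interaction term, the combination change less both single-drug changes, was 0.45, and ran between 0.30 with quantile normalization and 1.004 after a correction for GC content and transcript length. That correction moved the difference between the combination and ceritinib to 1.42. Leaving out any 1 library kept the combination value against DMSO between 1.94 and 2.004. Across all settings tried it ran between 1.88 and 2.54. Since all of these values come from the contrasts that chose CD55, they carry no p-value.

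**Figure D1:**
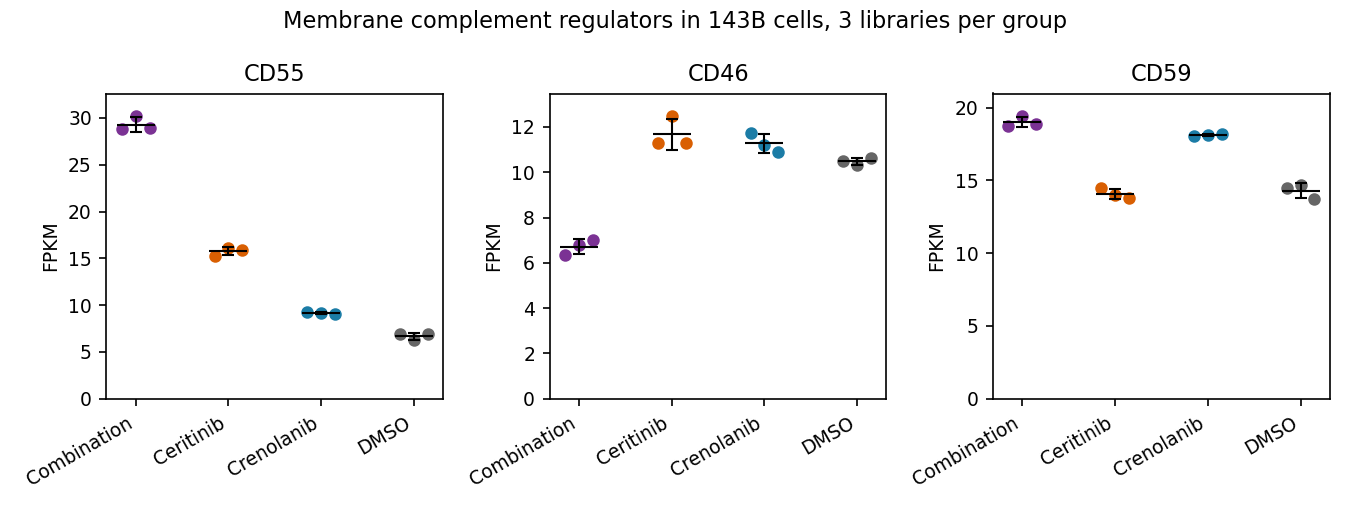
CD55, CD46 and CD59 in FPKM (vertical axes, each starting at 0) by group: each point is 1 library, the long bar the mean and the short bars 1 SD (n = 3). The 4 groups are separate for CD55 (29.3, 15.8, 9.18 and 6.69 FPKM), CD46 is low only in the combination (6.71 FPKM), and CD59 is higher in the combination and with crenolanib (19.0 and 18.1 FPKM) than with ceritinib and in DMSO (14.1 and 14.3 FPKM).

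CD46 fell in the combination as deposited, unlike CD55. Its levels were 6.36, 6.79 and 6.99 FPKM in the combination, 11.3, 12.5 and 11.3 FPKM with ceritinib, 11.7, 11.2 and 10.9 FPKM with crenolanib, and 10.5, 10.3 and 10.6 FPKM in DMSO. The combination libraries lay below all others, and the ceritinib and crenolanib ranges overlapped. The means were 6.71 ± 0.320 FPKM in the combination, 11.7 ± 0.695 with ceritinib, 11.3 ± 0.417 with crenolanib and 10.5 ± 0.152 in DMSO (SD, n = 3 each). By limma's moderated test, adjusted over all 11944 genes tested with the Benjamini-Hochberg method and called at an adjusted p under 0.05, CD46 changed by -0.58 ± 0.04 (SE) log2 units in the combination against DMSO (adjusted p = 6.41e-08). Its change was 0.14 with ceritinib (adjusted p = 0.0274) and 0.10 with crenolanib (adjusted p = 0.141). The ceritinib call did not hold after rescaling to TPM (adjusted p = 0.236), without the filter (adjusted p = 0.0637) and without ceritinib replicate 2 (adjusted p = 0.115) or DMSO replicate 1, 2 or 3 (adjusted p = 0.063, 0.081 and 0.0511).

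CD59 rose in the combination and with crenolanib. It measured 18.7, 19.4 and 18.9 FPKM in the combination, 14.5, 14.0 and 13.8 FPKM with ceritinib, 18.1, 18.1 and 18.2 FPKM with crenolanib, and 14.5, 14.7 and 13.7 FPKM in DMSO. All combination and crenolanib libraries were above all ceritinib and DMSO libraries, and the ceritinib and DMSO ranges overlapped. The change against DMSO was 0.39 ± 0.03 (SE) log2 units in the combination (adjusted p = 9.16e-08 by limma), -0.02 with ceritinib (adjusted p = 0.663) and 0.32 with crenolanib (adjusted p = 2.31e-05). The combination was 0.41 above ceritinib (adjusted p = 5.86e-08) and 0.07 above crenolanib (adjusted p = 0.0625). That last difference was -0.07 on the TPM scale and -0.02 with quantile normalization, but 0.25 with median-of-ratios scaling (adjusted p = 3.43e-06) and 0.76 after a correction for GC content and length (adjusted p = 2.21e-10). Ceritinib alone was 0.34 below crenolanib alone (log2 difference -0.34, adjusted p = 7.01e-06).

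CD46 and CD59 were thus both called in the combination against DMSO, where 87.7% of all genes tested were called in either direction. Of CD46 and CD59, only CD46 was called with ceritinib, where 36.5% of genes were, and only CD59 with crenolanib, where 26.0% were. The interaction term was -0.81 for CD46 (adjusted p = 1.12e-07 by limma) and 0.09 for CD59 (adjusted p = 0.09), and 81.5% of all genes passed for that term. The CD59 interaction was called after the GC and length correction (0.79, adjusted p = 8.21e-09), with median-of-ratios scaling (0.29, adjusted p = 3.1e-05) and without DMSO replicate 3 (0.11, adjusted p = 0.0257). CD46 was lower in the combination than with ceritinib by -0.72 log2 units (adjusted p = 7.65e-09) and than with crenolanib by -0.67 (adjusted p = 1.44e-08). In those comparisons 87.2% and 87.5% of genes were called. The single drugs did not differ past the threshold for CD46 (0.05 log2 units, adjusted p = 0.465), in a comparison with 34.8% of genes called.

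The direction of CD46 in the combination depended on the handling of GC content and transcript length. Over 10566 protein-coding genes, the combination changes against DMSO ran with the GC content of the longest transcript (Spearman's rho 0.679) and against its length (rho -0.444), where ceritinib had 0.0945 and -0.0507 and crenolanib 0.0489 and 0.113. These are correlations across genes, which are not independent replicates. The longest transcript of CD55 has 41.4% GC and 2892 nt, that of CD46 37.7% and 7826 nt, and that of CD59 45.5% and 7631 nt, against medians of 48.4% and 3700 nt. With splines of both removed from each library, CD46 was higher in the combination than in DMSO by 0.45 log2 units (adjusted p = 1.2e-07 by limma), higher than with ceritinib by 0.30 (adjusted p = 6.26e-06) and higher than with crenolanib by 0.37 (adjusted p = 8.01e-07). Under every other setting run, CD46 was lower in the combination than in DMSO, by -0.39 with median-of-ratios scaling to -0.78 on the TPM scale. The median change of all genes tested in that comparison was -0.16 log2 units as deposited, -0.34 on the TPM scale and -0.01 after the correction. The same correction gave 2.54 for CD55 and 1.06 for CD59 (adjusted p = 1.17e-11) against DMSO, and turned the CD46 interaction to 0.22 (adjusted p = 0.00175). The single-drug changes moved little, to 1.11 and 0.42 for CD55, 0.15 and 0.08 for CD46 and -0.03 and 0.30 for CD59. The correction also removes any such trend that the drugs themselves gave, and the part of GC and length in the CD46 values was not tested further.

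Ratios between the regulators within 1 library do not depend on its scaling. CD55 to CD46 was 4.37 ± 0.207 in the combination, 1.35 ± 0.0609 with ceritinib, 0.814 ± 0.0191 with crenolanib and 0.637 ± 0.0291 in DMSO (SD, n = 3 each), and no groups overlapped. CD55 to CD59 was 1.54 ± 0.0134 in the combination, 1.12 ± 0.0532 with ceritinib, 0.507 ± 0.00887 with crenolanib and 0.469 ± 0.0419 in DMSO, with overlap between crenolanib and DMSO only. The order of the 3 genes by FPKM thus differed between groups. CD55 was the highest in the combination and with ceritinib and the lowest with crenolanib and in DMSO, where CD59 was the highest. CD55 made up 53.2% of the summed FPKM of the 3 genes in the combination, 38.0% with ceritinib, 23.8% with crenolanib and 21.2% in DMSO. That sum was 55.0 ± 1.28 FPKM in the combination, 41.5 ± 0.889 with ceritinib, 38.6 ± 0.495 with crenolanib and 31.5 ± 0.346 in DMSO.

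CD59 to CD46 was 2.84 ± 0.122 in the combination, 1.21 ± 0.0816 with ceritinib, 1.61 ± 0.0633 with crenolanib and 1.36 ± 0.0692 in DMSO. The combination and crenolanib each stood apart from DMSO, and ceritinib lay below DMSO with no overlap. The difference between the CD55 and CD46 changes in the combination against DMSO was 2.56 log2 units as deposited and 2.09 after the GC and length correction. For CD55 against CD59 it was 1.59 and 1.48.

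**Figure D2:**
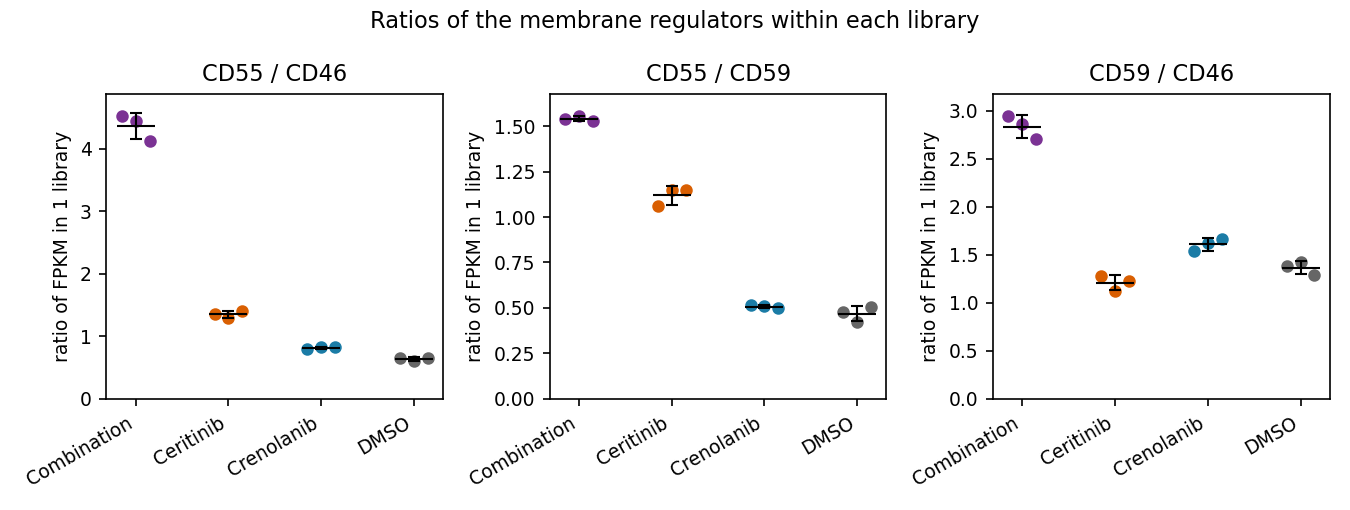
Ratios of FPKM of 2 regulators within each library (vertical axes from 0): points are libraries, long bars means and short bars 1 SD (n = 3). CD55 to CD46 is 4.37 in the combination and 0.637 in DMSO, and CD55 to CD59 is above 1 in the combination and with ceritinib only.

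CD55 (ENSG00000196352.15) spans positions 207321376 to 207386804 of chromosome 1 on the plus strand of hg38, and CD46 (ENSG00000117335.19) spans 207752057 to 207795513 of the same strand. They belong to the complement regulator cluster of that chromosome, 365 kb apart, and no other tested protein-coding gene lies between them. The outer neighbours were PFKFB2 beyond CD55, with a combination change of -0.20 log2 units, and PLXNA2 beyond CD46, with -2.08. CD59 (ENSG00000085063.15) lies at 33703010 to 33736491 on the minus strand of chromosome 11 and shares 19458 bases of that strand with AL049629.2, so its reads may be divided between both. Its neighbours KIAA1549L and FBXO3 had combination changes of -1.34 and -0.79.

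The start regions of the regulators are shown because CD55 and CD46 lie in 1 gene cluster and had opposite changes in the combination as deposited. RefSeq (GRCh38.p14) gave a start region of 250 bases before to 50 after the start for 4 of the 7 genes, and those of the 3 tested genes are printed 5′ to 3′ on the gene's strand. It listed 1 start for CD55, 2 for CD46 and 4 for CD59, and only 1 region per gene was printed and searched. Capitals mark matches on either strand to the GC box (GGGCGG), the half-site of the cAMP response element (TGACG) and the CCAAT box (CCAAT). The regions are chr1:207321428-207321727 (plus strand) for CD55, chr1:207751804-207752103 (plus strand) for CD46 and chr11:33736430-33736729 (minus strand) for CD59.
CD55: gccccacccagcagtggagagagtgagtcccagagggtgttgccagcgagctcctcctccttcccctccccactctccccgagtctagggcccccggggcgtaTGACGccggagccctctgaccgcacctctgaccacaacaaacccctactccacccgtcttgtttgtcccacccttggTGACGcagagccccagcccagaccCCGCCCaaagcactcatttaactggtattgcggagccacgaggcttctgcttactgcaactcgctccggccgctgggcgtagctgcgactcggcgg
CD46: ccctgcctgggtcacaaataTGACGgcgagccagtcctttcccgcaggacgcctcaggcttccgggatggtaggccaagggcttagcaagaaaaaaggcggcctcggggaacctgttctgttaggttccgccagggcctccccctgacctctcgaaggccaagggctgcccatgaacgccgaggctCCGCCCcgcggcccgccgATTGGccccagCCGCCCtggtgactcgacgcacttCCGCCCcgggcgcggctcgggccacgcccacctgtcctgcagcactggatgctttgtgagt
CD59: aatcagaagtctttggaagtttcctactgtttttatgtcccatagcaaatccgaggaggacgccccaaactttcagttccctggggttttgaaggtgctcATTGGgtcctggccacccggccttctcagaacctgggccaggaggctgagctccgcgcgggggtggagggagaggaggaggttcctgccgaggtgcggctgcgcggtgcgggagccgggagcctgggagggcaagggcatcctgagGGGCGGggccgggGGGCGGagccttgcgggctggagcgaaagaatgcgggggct

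The CD55 region held 1 GC box and 2 TGACG matches, the CD46 region 3 GC boxes, 1 TGACG and 1 CCAAT, and the CD59 region 2 GC boxes and 1 CCAAT. Of the 35116 start regions in the table, 45.0% held a GC box, 24.6% TGACG and 34.6% CCAAT. No region of the 3 held the letters of the AP-1 site TGAGTCA, a consensus NF-κB site or the TATA box TATAAA, which 4.95%, 1.61% and 11.5% of all regions held. GC content was 65.0% for CD55, 67.3% for CD46 and 64.3% for CD59, against a median of 58.7%. Matches are a description of these letters and not of bound sites.

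Among the secreted members, C3 was detectable above its counting limit in the combination and with ceritinib. C3, the central component of all complement pathways, had 0.352, 0.279 and 0.238 FPKM in the combination, 0.0267, 0.0486 and 0.0233 FPKM with ceritinib, 0.0171, 0.0197 and 0 FPKM with crenolanib, and 0.0181, 0.0168 and 0.0213 FPKM in DMSO. All combination libraries were above all others. At the estimated depth these levels correspond to 93.3 fragments over the 3 combination libraries, 13.2 with ceritinib, 4.48 with crenolanib and 7.48 in DMSO, and every crenolanib and DMSO library was at or under the level of 3 fragments. The mean in the combination was 8.82 times that with ceritinib, a rough ratio because each ceritinib library held only 3.29 to 5.93 estimated fragments. No ratio is given to DMSO, which is under the limit. Without the expression filter, the C3 change against DMSO was 0.34 ± 0.03 (SE) on the log2(FPKM + 1) scale in the combination (adjusted p = 1.89e-06 by limma) and 0.02 with ceritinib (adjusted p = 0.721). That scale understates changes at such low levels.

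C3 (ENSG00000125730.16, chromosome 19, 6677704 to 6730562, minus strand) shares 649 bases of its strand with GPR108, a more abundant gene. GPR108 averaged 13.7 ± 0.54 FPKM in the combination, 5.98 ± 0.339 with ceritinib, 5.44 ± 0.302 with crenolanib and 5.50 ± 0.165 in DMSO (SD, n = 3 each). Its change against DMSO was 1.17 log2 units in the combination (adjusted p = 1.02e-10 by limma), so it moved with C3, and its part in the C3 values was not tested. C3 at 0.290 FPKM in the combination was far below the 29.3 FPKM of CD55.

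C1R, a protease of the C1 complex, was low in every group. It had 0.210, 0.231 and 0.236 FPKM in the combination, 0.264, 0.155 and 0.138 FPKM with ceritinib, 0.151, 0.0890 and 0.135 FPKM with crenolanib, and 0.102, 0.186 and 0.190 FPKM in DMSO. The combination lay above crenolanib and DMSO and inside the ceritinib range. Without the filter its combination change against DMSO was 0.08 log2 units (adjusted p = 0.183 by limma) and 0.12 against crenolanib (adjusted p = 0.0444). C1R shares 3021 bases of the minus strand of chromosome 12 with C1RL, which rose by 0.72 log2 units in the combination (adjusted p = 2.75e-08), so its low values are uncertain.

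C1S, the partner protease of C1R, was at or under the level of 3 fragments in 10 of 12 libraries and at 0 in 2. It had 0, 0.0411 and 0.0425 FPKM in the combination, 0.0152, 0.0507 and 0.0449 FPKM with ceritinib, 0, 0.0275 and 0.00861 FPKM with crenolanib, and 0.0162, 0.0298 and 0.0229 FPKM in DMSO. The combination range covered those of crenolanib and DMSO, and no difference was detectable at this depth. C1S overlaps EMG1 (14.7 to 19.9 FPKM over the 12 libraries) by 9170 bases on the same strand. SERPING1, the C1 inhibitor, was listed at 0 in all 12 libraries, where 3 fragments would have given 0.0477 to 0.0687 FPKM. All 12 ubiquitous genes looked up beside it were above 0 in every library, the lowest at 5.16 FPKM.

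**Figure D3:**
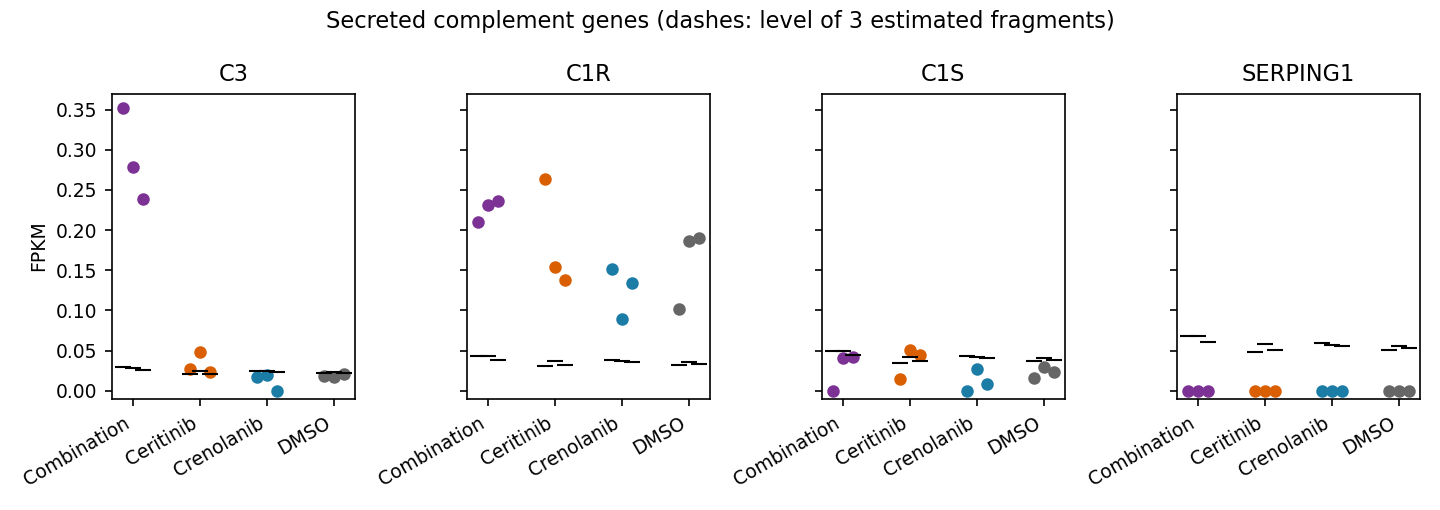
C3, C1R, C1S and SERPING1 in FPKM (shared vertical axis) by group: points are libraries, dashes the level of 3 estimated fragments in that library. C3 is at 0.238 to 0.352 FPKM in the combination and at most 0.0486 FPKM elsewhere, C1S is near its dashes, and SERPING1 is at 0 throughout.

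The wider complement system was sparse in these cells. Of 62 complement genes in 6 lists (the 7 members included), 10 passed the filter, 23 were at 0 in all libraries and 29 were above 0 in at least 1 library without passing. No gene of the terminal pathway (C6 to C9) passed. Besides CD55, CD46 and CD59, those tested were 2 of 18 in the classical and lectin lists (C1RL and COLEC12), C5 among 5 central and alternative pathway genes, SUSD4 among 8 membrane regulators, CLU among 14 soluble regulators, and 2 of 11 receptors (C1QBP and ADGRE5). Of the 9 tested genes other than CD55, 5 were higher and 4 lower in the combination against DMSO, beside 36.8% and 50.9% of all genes. Of the lower genes, SUSD4 and C5 passed the filter only through ceritinib and DMSO libraries, where they were highest. After the GC and length correction 7 of the 9 were higher and 2 lower, beside 39.4% and 40.8% of all genes. Over all genes, scaling by median of ratios gave 5288 higher and 5266 lower. The median change of the 9 genes as deposited was 0.39 log2 units, against -0.16 over all genes tested. With ceritinib 4 were higher and 1 lower, beside 20.3% and 16.3% of all genes, a split that on the TPM scale was 1342 genes higher and 2982 lower. With crenolanib 2 were higher and 2 lower, beside 13.0% of all genes in each direction.

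CLU, which encodes clusterin, a soluble inhibitor of the attack complex, averaged 6.85 ± 0.467 FPKM in the combination, 4.08 ± 0.222 with ceritinib, 3.05 ± 0.171 with crenolanib and 3.02 ± 0.116 in DMSO (SD, n = 3 each). It rose by 0.97 log2 units in the combination (adjusted p = 2.02e-09 by limma) and 0.34 with ceritinib (adjusted p = 0.00041), and had 0.01 with crenolanib (adjusted p = 0.908). ADGRE5, also named CD97, is a cell-surface receptor that binds CD55. It averaged 8.21 ± 0.198 FPKM in the combination, 4.64 ± 0.151 with ceritinib, 5.23 ± 0.272 with crenolanib and 4.45 ± 0.168 in DMSO, and rose by 0.76 log2 units in the combination (adjusted p = 1.94e-09) and 0.19 with crenolanib (adjusted p = 0.0054). The ADGRE5 change with ceritinib was 0.05 (adjusted p = 0.386). C1RL, a C1R-like protease, averaged 3.61 ± 0.0467 FPKM in the combination, 2.24 ± 0.202 with ceritinib, 1.97 ± 0.12 with crenolanib and 1.79 ± 0.0844 in DMSO. It rose by 0.72 in the combination (adjusted p = 2.75e-08) and 0.21 with ceritinib (adjusted p = 0.00712).

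COLEC12, a scavenger receptor of the collectin family, averaged 0.966 ± 0.0698 FPKM in the combination, 2.36 ± 0.232 with ceritinib, 3.36 ± 0.137 with crenolanib and 3.53 ± 0.0176 in DMSO. It fell by 1.20 log2 units in the combination (adjusted p = 2.4e-10 by limma) and by 0.43 with ceritinib (adjusted p = 6.37e-05). SUSD4, a membrane protein that inhibits complement, fell by 0.85 in the combination (adjusted p = 1.04e-08) and by 0.40 with crenolanib (adjusted p = 0.000284). Only ceritinib and DMSO libraries of SUSD4 reached 1 FPKM, so it was tested through the groups where it was high. It peaked at 0.289 FPKM in the combination and 0.788 FPKM with crenolanib. Its levels were 0.256 ± 0.0403 FPKM in the combination, 1.04 ± 0.039 with ceritinib, 0.707 ± 0.0858 with crenolanib and 1.26 ± 0.0881 in DMSO. These directions held with the GC and length correction for CLU (0.89), ADGRE5 (0.34), C1RL (0.65), COLEC12 (-0.81) and SUSD4 (-0.91) in the combination.

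C5, whose cleavage starts assembly of the attack complex, averaged 0.354 ± 0.0103 FPKM in the combination, 1.04 ± 0.154 with ceritinib, 0.879 ± 0.0729 with crenolanib and 1.03 ± 0.0495 in DMSO. It fell by 0.59 log2 units as deposited in the combination (adjusted p = 9.24e-07 by limma), but the correction gave 0.28 (adjusted p = 0.000924), the reversal also seen for CD46. No combination or crenolanib library of C5 reached 1 FPKM, so C5 too was tested through ceritinib and DMSO libraries. C1QBP, a mainly mitochondrial protein that binds the globular heads of C1q, averaged 164 ± 4.44 FPKM in the combination, 130.2 ± 1.97 with ceritinib, 110.3 ± 2.43 with crenolanib and 124 ± 1.68 in DMSO. It rose by 0.40 in the combination (adjusted p = 1.29e-08) and fell by 0.16 with crenolanib (adjusted p = 0.000986). Its combination call was lost with quantile normalization (0.01, adjusted p = 0.695), and its ceritinib change of 0.07 (adjusted p = 0.0462) lost the call under most alternatives.

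**Figure D4:**
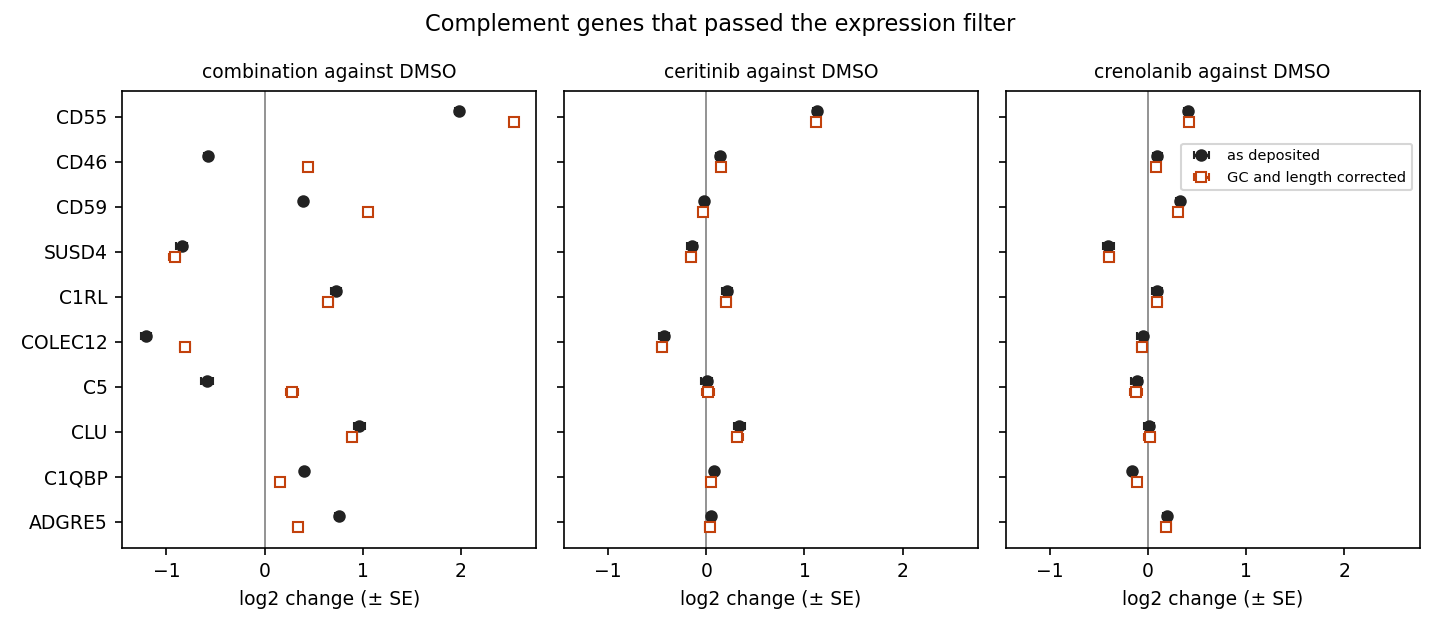
Log2 changes against DMSO (horizontal axes, ± SE of the fit) of the 10 complement genes that passed the filter, in the combination, with ceritinib and with crenolanib: filled circles as deposited, open squares after the GC and length correction. CD46 and C5 lie on opposite sides of 0 in the combination before and after correction (-0.58 and 0.45, -0.59 and 0.28), while the single-drug values nearly coincide.

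The GPI anchor that holds CD55 and CD59 is built by its own enzymes. Of 28 genes for its synthesis and transfer, 26 were tested, of which 13 were higher and 10 lower in the combination, 7 higher and 3 lower with ceritinib, and 1 higher and 1 lower with crenolanib. Over all genes the shares were 36.8% and 50.9% in the combination, 20.3% and 16.3% with ceritinib, and 13.0% each way with crenolanib. Of the 26 genes, PIGP, counted as higher in the combination, passed the filter only through combination libraries. PIGA and PGAP1, counted as lower there, passed only through the other groups. These genes were thus tested through the groups where they were high. The median change of the list in the combination was 0.15 log2 units, against -0.16 over all genes tested. After the GC and length correction 14 of the list were higher and 7 lower in the combination, beside 39.4% and 40.8% of all genes. GPAA1 and PIGQ, a transamidase subunit and a subunit of the enzyme of the first step, rose by 1.59 and 1.40 log2 units in the combination (adjusted p = 2.27e-09 and 2.1e-08 by limma). The correction left them at 0.84 and 0.73. PIGK, the catalytic transamidase subunit, fell by 1.29 as deposited (adjusted p = 5.06e-11) and was at -0.49 after the correction. PGAP1, which removes an acyl chain from the finished anchor, fell by 0.96 as deposited (adjusted p = 2.27e-09) and was at 0.12 after the correction. PGAP1 peaked at 0.330 FPKM in the combination, so it was tested through the other groups, where it was high.

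Of 23 other GPI-anchored surface proteins 17 were tested, of which 5 were higher and 10 lower in the combination, 4 higher and 7 lower with ceritinib, and 9 higher and 3 lower with crenolanib, beside all-gene shares of 36.8% and 50.9%, 20.3% and 16.3%, and 13.0% each way in those comparisons. Their median in the combination was -0.32 as deposited and 0.15 after the correction. That correction left 10 higher and 4 lower, beside 39.4% and 40.8% of all genes. The glypican GPC1 and LY6E, a small antiviral surface protein, rose by 1.77 and 1.66 in the combination (adjusted p = 1.31e-10 and 1.3e-10 by limma). The correction left them at 1.19 and 0.85. ULBP1, a ligand of the NKG2D receptor, fell by 1.48 as deposited (adjusted p = 1.31e-09) and was at -0.95 after the correction. GPC6, another glypican, fell by 0.72 as deposited (adjusted p = 6.3e-09) and was at 0.15 after the correction. GPC6 peaked at 0.556 FPKM in the combination, so it was tested through the other groups, where it was high. For single drugs the smallest adjusted p were those of CD24, 0.93 with ceritinib (5.9e-08), and CD109, 0.57 with crenolanib (1.84e-06).

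Over the 12 libraries, CD55 correlated with CD46 at r = -0.73 and with CD59 at r = 0.48, and CD46 with CD59 at r = -0.64 (Pearson, log2(FPKM + 1)). These are descriptions over 12 libraries that fall into 4 treatment groups and share the 3 genes' contrasts. Among 10153 other protein-coding genes with a mean of at least 1 FPKM, the highest correlations with CD55 were those of LIPG, an endothelial lipase (r = 0.998), CXCR4, a chemokine receptor (r = 0.996), SPARC, a matrix protein (r = 0.992), NFKBIA, the NF-κB inhibitor IκBα (r = 0.991), and PDRG1 (r = 0.989). The nearest by distance between their 3 log2 changes against DMSO were PTGS2, the prostaglandin synthase COX-2 (distance 0.29), BCL3, a nuclear IκB protein (0.32), LYPD1 (0.35), HAS3, a hyaluronan synthase (0.39), and CYP1B1, a cytochrome P450 (0.40). These genes were selected for their likeness to CD55, so the order of their changes, which is that of CD55, follows from the selection. PTGS2 matched CD55 in the combination with 1.98 and had 0.85 with ceritinib and 0.34 with crenolanib. CXCR4 had larger changes, 3.56 in the combination, 2.14 with ceritinib and 0.88 with crenolanib.

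**Figure D5:**
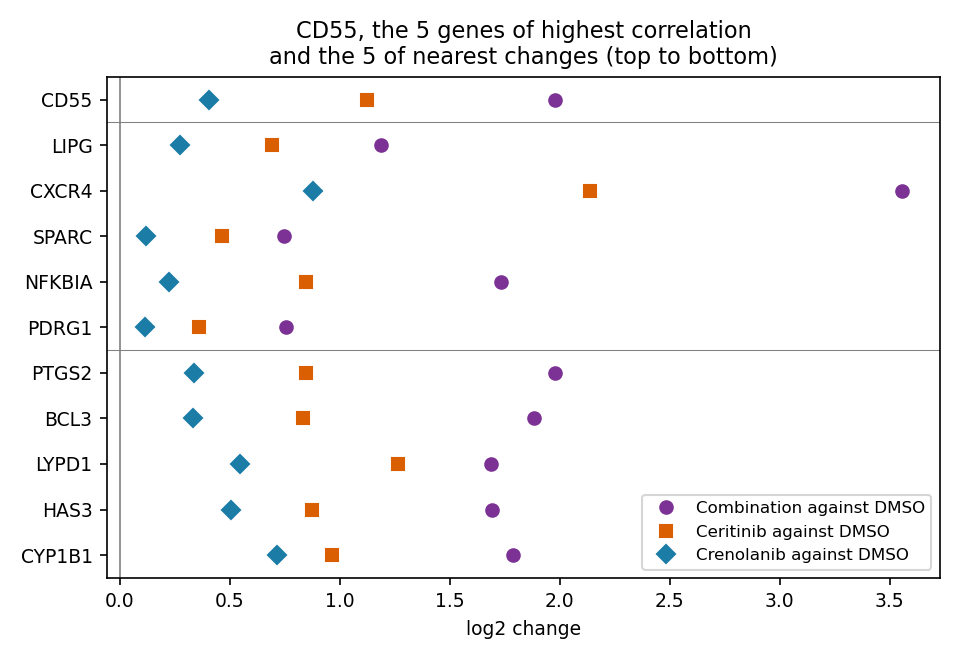
Log2 change against DMSO (horizontal axis) of CD55, of the 5 genes whose levels correlate best with it over 12 libraries and of the 5 whose changes lie nearest (rows, top to bottom): circles are the combination, squares ceritinib and diamonds crenolanib. The genes were selected for likeness to CD55, so their shared order is no result; CD55 is at 1.98, 1.13 and 0.41.

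Protein on the cell surface was not measured. The labels give no culture day or extraction batch. The p-values set a group difference against the spread between replicate dishes within groups, pooled over the 4 groups and moderated across genes.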

How the data were processed

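Total RNA of 143B cells was made into strand-specific TruSeq libraries and sequenced on a NovaSeq, per the labels' protocols. The 12 deposited tables hold 1 FPKM value per gene symbol and library; no header names the unit, which was inferred from the numbers and from the tools. FastQC 0.11.2, STAR and StringTie with the hg38 build are listed per the submitters' processing notes. The annotation, the strand setting, and which STAR and StringTie releases were run were not given in the sources used here. How reads of overlapping genes were divided is unknown.

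Groups followed the treatment labels. The 11944 of 56140 genes that reached 1 FPKM in 3 or more libraries were fitted on log2(FPKM + 1), a scale that understates changes of low genes, with limma 3.58.1 (trend on, R 4.3.3) and 1 mean per group over 12 libraries, which leaves 8 residual degrees of freedom. Tests were two-sided, with Benjamini-Hochberg adjustment and a threshold of 0.05, and were checked on simulated data. Summaries used python 3.11.15, numpy 2.4.6, pandas 2.3.3 and scipy 1.17.1. Depth was estimated from the modal smallest step of FPKM times length in 1-transcript genes of at least 500 nt, and limits of 3 fragments cover counting error only. Fragments of a gene were estimated with the length of its longest transcript, so they are approximate. An entry with no gene name held at most 0.00426% of the summed FPKM and stayed out of the tests. GENCODE 29 gave loci, lengths and GC for 54611 symbols; 98.5% of the genes tested had GC and length for the correction (natural splines of 5 degrees of freedom each). The members and gene lists were chosen with earlier results of these data known. Named genes were the 7 members, every tested complement gene, GPI genes of smallest adjusted p (at most 4 per direction), chromosomal neighbours, and the 5 genes nearest to CD55 by each of 2 measures. Replicate numbers were not used as pairs: of 18 same-numbered pairs, 1 had deviations correlated above 0.1. Alternatives changed the pseudocount, filter, scaling, variance model, libraries in the fit, block and GC and length handling.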

Additional observations from a re-analysis of the deposited data

Results flagged for a closer look

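In 8 of the 9 tested complement genes other than CD55 the combination departed from the sum of both single-drug changes on the log2 scale. This is by limma's test of that interaction, which called 81.5% of all genes tested, so such a count is not particular to complement genes. CD59 was not called as deposited. The interaction was positive for CLU (0.62, adjusted p = 7.12e-06), ADGRE5 (0.52, adjusted p = 3.77e-06), C1QBP (0.49, adjusted p = 9.76e-08) and C1RL (0.42, adjusted p = 0.000165). It was negative for CD46 (-0.81, adjusted p = 1.12e-07), COLEC12 (-0.72, adjusted p = 1.72e-06), C5 (-0.48, adjusted p = 0.0002) and SUSD4 (-0.30, adjusted p = 0.00334). Of these, C5 and SUSD4 passed the filter only through ceritinib and DMSO libraries. After the GC and length correction CD46 and C5 had positive interactions, 0.22 and 0.39, and ADGRE5 was no longer called (0.12, adjusted p = 0.11). With quantile normalization the interactions of C5 (-0.10, adjusted p = 0.331) and C1QBP (0.07, adjusted p = 0.156) were not called, and that of SUSD4 was 0.04 (adjusted p = 0.679).

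An entry with no gene name, used in no comparison, averaged 11.2 FPKM in the combination, 3.18 with ceritinib, 2.82 with crenolanib and 2.77 in DMSO. Its lowest combination library, at 10.8 FPKM, was above the highest DMSO library, at 3.004 FPKM.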

How the results depend on the processing

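Of 1805 values recomputed for 78 results, 1682 kept their direction and call or stayed within their tolerance. Counts of called genes moved by over 1.5 times only under the filter of at least 5 FPKM, which tests fewer genes: 6231 for the combination against DMSO, 6212 against ceritinib, 6269 against crenolanib and 5984 for the interaction. With 1 library left out, the counts ran from 10156 to 10475 (combination against DMSO), 10125 to 10414 (against ceritinib), 10147 to 10412 (against crenolanib), 3552 to 4600 (ceritinib against DMSO), 2280 to 3260 (crenolanib against DMSO), 3240 to 4346 (ceritinib against crenolanib) and 9492 to 9646 (interaction). With the replicate number as a block, 10448 genes were called for the combination, 4131 for ceritinib and 2772 for crenolanib against DMSO, 10390 and 10424 for the combination against ceritinib and crenolanib, 3895 for ceritinib against crenolanib and 9709 for the interaction. The numbers did not pair the libraries (median correlation of deviations -0.001), and the block ended 1 call named in the text, that of C1QBP with ceritinib (adjusted p = 0.0611).

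Signs turned under the GC and length correction for CD46 in the combination against DMSO (0.45), ceritinib (0.30) and crenolanib (0.37) and in the interaction (0.22), for C5 in the combination (0.28) and the interaction (0.39), and for GPC6 (0.15) and PGAP1 (0.12) in the combination. They turned on the TPM scale for CD46 in ceritinib against crenolanib (-0.00597) and for CD59 in the combination against crenolanib (-0.0665), and with quantile normalization for CD59 in that comparison (-0.0248) and the SUSD4 interaction (0.0381). CD59 with ceritinib ran from -0.048 without DMSO replicate 3 to 0.000297 without DMSO replicate 2. The causes were not tested. On the TPM scale 1436 genes were called higher and 2542 lower with ceritinib against crenolanib, where the deposited scale gave 2317 and 1835, and quantile normalization gave 4945 and 4657 for the interaction, where the deposited scale gave 4035 and 5697. Depth limits C3, C1R, C1S and SERPING1, of which no change can be read near 3 fragments.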
